A study of Mus musculus with 15 samples.

Results

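Pde3b and 9 further cyclic nucleotide phosphodiesterase genes were compared in the embryonic brain of WT mice and of mice that carry the K228E mutation of Tbr1. The group holds 10 of the 19475 genes in the deposited table, and it was set by name: Pde3b, Pde3a, Pde1a, Pde1b, Pde1c, Pde2a, Pde4a, Pde4b, Pde4d, and Pde10a. Pde3b was selected on its normalized read counts in heterozygous against WT embryos of these same samples, so its own values are a description without a test. All 10 genes passed the filter on low values. Pde2a was found through a RefSeq accession, because its row carries the Ensembl identifier ENSMUSG00000030653, which GENCODE M21 gives to an overlapping read-through locus named Gm45837. The Pde2a values therefore cover that whole locus, and the other 9 genes were matched by symbol.

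RNA-Seq was carried out on the brains of 15 C57BL/6J embryos at E16.5, with 5 embryos per genotype. The genotypes were WT, Tbr1 hetero (Tbr1+/K228E, in which 1 Tbr1 allele carries the mutation), and Tbr1 homo (Tbr1K228E/K228E, in which both alleles carry it). The mutation was knocked into exon 1 of Tbr1, and the mutant allele passed through protamine-Cre mice to remove a neomycin cassette. Each genotype had 3 female and 2 male embryos, and the mutant embryos carry the allele in every cell. The labels name the tissue as brain, and the study's results name forebrain. Tbr1, a T-box transcription factor of early-born cortical neurons, ranged from 2097 to 4871 normalized reads in WT, from 4738 to 8543 in Tbr1+/K228E, and from 7148 to 16015 in Tbr1K228E/K228E embryos.

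Cyclic nucleotide phosphodiesterases end a cAMP or cGMP signal by hydrolyzing the nucleotide to its 5′ monophosphate. The PDE3 enzymes act on cAMP and are inhibited by cGMP, the PDE1 enzymes are switched on by calcium and calmodulin, the PDE2 enzyme is stimulated by cGMP, and the PDE4 enzymes act on cAMP alone. PDE10A acts on both nucleotides and is known for its abundance in striatal medium spiny neurons, and PDE3B is best known as the enzyme through which insulin and AKT lower cAMP in fat and liver cells.

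Members of a family resemble each other, so the coding sequences were compared for stretches of identical bases. Over the 7 pairs within a family, the longest stretch of identical coding bases was 14 to 32 bases, and between families it was at most 17 bases. These stretches are shorter than the sequenced reads. The pair of PDE3 genes and the closest pairs of the PDE4 and PDE1 families are shown from GENCODE M21 transcripts on GRCm38, 5′ to 3′ on the coding strand, with the identical stretch in capitals. They are shown because they give the longest exact match between coding bases of the paired genes, and matches outside the coding sequence were not searched.
Pde3b (chr7:114415967-114416010, plus strand): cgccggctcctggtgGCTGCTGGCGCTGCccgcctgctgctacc
Pde3a (chr6:141249787-141249830, plus strand): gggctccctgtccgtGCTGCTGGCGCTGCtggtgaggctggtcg
Pde4b (chr4:102570858-102590871, plus strand): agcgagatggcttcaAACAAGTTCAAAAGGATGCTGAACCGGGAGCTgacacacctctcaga
Pde4d (chr13:109903669-109933908, plus strand): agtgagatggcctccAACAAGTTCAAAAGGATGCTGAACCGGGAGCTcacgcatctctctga
Pde1a (chr2:79897123-79897175, minus strand): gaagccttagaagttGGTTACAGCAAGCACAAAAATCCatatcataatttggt
Pde1c (chr6:56173661-56173713, minus strand): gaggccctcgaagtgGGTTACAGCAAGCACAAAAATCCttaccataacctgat
Pde3b and Pde3a shared 14 bases in a GC-rich part of the first exon, which was the shortest of the 7 runs within families, and a run of 17 bases was shared by Pde3b and Pde1c. Pde4b and Pde4d shared 32 bases across a splice junction, so that their genomic spans include an intron, and Pde1a and Pde1c shared 23 bases within an exon.

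TBR1 binds DNA through its T-box, and the promoter windows of the genes were searched for the T-box core GGTGTGA on either strand (TCACACC on the other). The windows come from RefSeq on GRCm38.p6 and run from 250 bases before to 50 bases after a transcription start. None of the 25 windows of 8 of the genes held these letters, and 1307 of all 32851 windows did (3.98%). Pde3b and Pde3a were not among the 8 genes.

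Pde3b (ENSMUSG00000030671) lies on the plus strand of chromosome 7, at chr7:114415281-114539251 of GRCm38. Its normalized read count in WT embryos 1 to 5 was 739, 938, 790, 1056, and 745. In Tbr1+/K228E embryos it was 486, 684, 716, 621, and 666, and in Tbr1K228E/K228E embryos it was 650, 637, 631, 610, and 632. Every mutant embryo of either genotype thus lay below every WT embryo, although the lowest WT embryo (739) and the highest Tbr1+/K228E embryo (716) were close. The mean ± SD of 5 embryos was 853 ± 139 for WT, 635 ± 90.1 for Tbr1+/K228E, and 632 ± 14.6 for Tbr1K228E/K228E mice, which puts the mutant means at 74.4% and 74.1% of WT. Embryos that lay wholly below WT were found for 26 of the 16507 tested genes in Tbr1+/K228E mice (0.158%) and for 45 in Tbr1K228E/K228E mice (0.273%). Pde3b is among them by the way it was chosen, and both comparisons share the same 5 WT embryos.

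**Figure D1:**
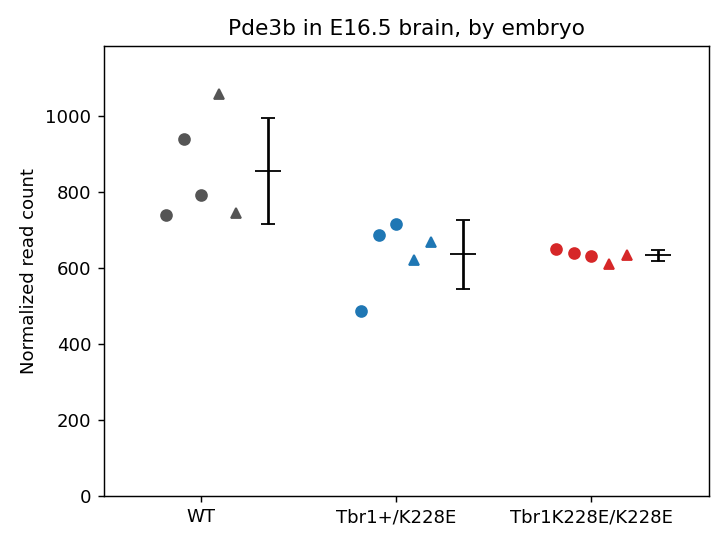
Normalized read count of Pde3b (vertical axis, from 0) in each embryo of the 3 genotypes. Circles are females, triangles are males, and the bar beside each genotype is the mean with its SD (n = 5); the mutant embryos lie between 486 and 716 and the WT embryos between 739 and 1056.

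On the log2 scale, Pde3b differed from WT by -0.43 (SE 0.11) in Tbr1+/K228E and by -0.42 (SE 0.11) in Tbr1K228E/K228E mice, which corresponds to 0.745 and 0.748 times the WT level. The difference between both mutant genotypes was 0.01 (SE 0.11). Mice with 1 and with 2 mutant alleles thus differed by less than the spread between embryos. Among the sexes, the log2 fold change in Tbr1+/K228E mice was -0.40 (SE 0.15) in females and -0.46 (SE 0.16) in males. In Tbr1K228E/K228E mice it was -0.35 in females and -0.51 in males, and the male minus female difference of -0.16 was smaller than its SE of 0.24.

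The size of the Pde3b difference rested in part on WT embryos 2 and 4 and on Tbr1+/K228E embryo 1. Without WT embryo 4, the log2 fold changes were -0.34 in both mutant genotypes, without WT embryo 2 they were -0.39 and -0.38, and without Tbr1+/K228E embryo 1, the value in that genotype was -0.33. The spread also differed between genotypes: the coefficient of variation of Pde3b was 16.3% in WT, 14.2% in Tbr1+/K228E, and 2.3% in Tbr1K228E/K228E embryos. Of the other 9 genes, none had a coefficient of variation below 5.98% in Tbr1K228E/K228E embryos.

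Pde3a (ENSMUSG00000041741, chr6:141249269-141507448, plus strand) is the other member of the PDE3 family, and is best known from heart, platelets, and oocytes. Its normalized read count was 594, 642, 479, 757, and 603 in WT, and 581, 501, 580, 573, and 651 in Tbr1+/K228E embryos. In Tbr1K228E/K228E embryos it was 575, 658, 425, 572, and 582. The 3 genotypes overlapped over most of their range. The log2 fold change was -0.08 (SE 0.12, 95% interval -0.34 to 0.18) in Tbr1+/K228E and -0.13 (SE 0.12, interval -0.39 to 0.13) in Tbr1K228E/K228E mice. Neither passed the threshold (adjusted p = 0.999 and 1.00, limma with Benjamini-Hochberg correction). The difference between Pde3a and Pde3b was not tested.

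In Tbr1+/K228E mice, none of the 9 genes other than Pde3b passed the adjusted threshold of 0.05, and 0 of all 16507 tested genes did (0%; limma with Benjamini-Hochberg correction). An unadjusted p under 0.05 was found for 295 genes (1.79%), and for none of the 9. Their log2 fold changes ran from -0.08 to 0.03 with a median of -0.02, and 7 of the 9 were below 0, against 51.2% of all tested genes. In Tbr1K228E/K228E mice, 21 of the 16507 genes passed (0.127%) and none of the 9 did, and 6 of the 9 were below 0, against 51.3% of all tested genes. Of the 534 genes with an unadjusted p under 0.05 (3.23%), 1 was among the 9, namely Pde1c. Between Tbr1K228E/K228E and Tbr1+/K228E mice 13 genes passed (0.0788%) and 544 had an unadjusted p under 0.05 (3.3%), and none of the 9 was in either count. In that comparison 4 of the 9 were below 0, against 49.8% of all. The embryos of both groups overlapped for each of the 9 genes in all 3 comparisons, whereas groups without overlap, in either direction, made up 0.26%, 0.594%, and 0.878% of the tested genes.

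**Figure D2:**
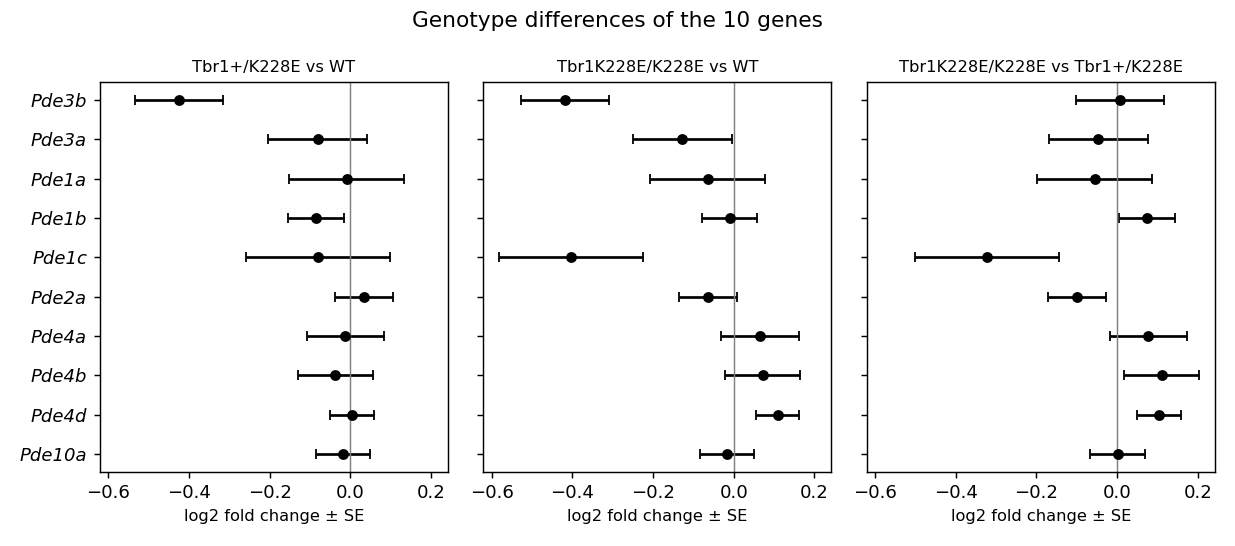
Difference between genotypes of each of the 10 genes, as log2 fold change (horizontal axis) with its standard error from limma, in 3 panels for the 3 comparisons. Pde3b lies at -0.43 and -0.42 against WT and at 0.01 between both mutant genotypes, Pde1c lies at -0.40 in Tbr1K228E/K228E against WT, and the other 8 genes lie between -0.13 and 0.11 in every panel.

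Of the calcium-dependent PDE1 family, Pde1c (chr6:56069804-56569103, minus strand) varied most among WT embryos (coefficient of variation 28.6%), whereas Pde1a varied most within either mutant genotype (17.1% and 19.3%). Pde1c acts on cAMP and cGMP alike. WT embryos 1 to 5 had 1037, 1365, 966, 1485, and 696 normalized reads, Tbr1+/K228E embryos had 998, 740, 1137, 1109, and 1152, and Tbr1K228E/K228E embryos had 999, 753, 778, 841, and 710. The last genotype lay at the low end, but WT embryo 5 was lower than all of its 5 embryos. Its log2 fold change against WT was -0.40 (SE 0.18, 95% interval -0.78 to -0.02), which stayed short of the threshold (Benjamini-Hochberg adjusted p = 1.00 from limma). Without WT embryo 5 it was -0.56, and without WT embryo 4 it was -0.29. In Tbr1+/K228E mice the value was -0.08 (interval -0.46 to 0.30).

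Pde1a (chr2:79834453-80129458, minus strand) and Pde1b (chr15:103503034-103530052, plus strand) did not share that pattern. Pde1a ranged from 436 to 723 over the 15 embryos, and its log2 fold changes against WT were -0.01 (interval -0.31 to 0.29) and -0.06 (interval -0.37 to 0.24). Pde1b, which is abundant in the striatum, ranged from 2690 to 2943 in WT, from 2312 to 3106 in Tbr1+/K228E, and from 2657 to 3098 in Tbr1K228E/K228E embryos. Its log2 fold changes were -0.08 (interval -0.23 to 0.06) and -0.01 (interval -0.16 to 0.14).

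The PDE4 genes encode the cAMP-specific enzymes that rolipram inhibits. Pde4d (chr13:108449948-109953461, plus strand) had 1590, 1541, 1529, 1733, and 1555 normalized reads in WT, 1544, 1478, 1564, 1758, and 1634 in Tbr1+/K228E, and 1708, 1654, 1680, 1892, and 1640 in Tbr1K228E/K228E embryos. In the last genotype 4 values were close together and embryo 4 was higher, and of the WT embryos only embryo 4 reached into their range. The log2 fold change was 0.00 (interval -0.11 to 0.12) in Tbr1+/K228E and 0.11 (interval -0.01 to 0.22) in Tbr1K228E/K228E mice, and neither passed (adjusted p = 0.999 and 1.00, limma with Benjamini-Hochberg correction). Pde4a (chr9:21165714-21213248, plus strand) ranged from 1103 to 1664 and Pde4b (chr4:102087543-102607259, plus strand) from 1485 to 2256 over all embryos. Their log2 fold changes lay between -0.04 and 0.07 against WT.

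Pde2a (chr7:101410886-101512819, plus strand, for the locus described above) ranged from 2283 to 3008 normalized reads. Its log2 fold changes against WT were 0.03 (interval -0.12 to 0.19) and -0.06 (interval -0.22 to 0.09). Pde10a (chr17:8525372-8986648, plus strand) ranged from 3703 to 4534 in Tbr1K228E/K228E and from 3858 to 4347 in WT embryos, with a log2 fold change of -0.02 in either mutant genotype (interval -0.16 to 0.12 in Tbr1+/K228E and -0.16 to 0.13 in Tbr1K228E/K228E).

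**Figure D3:**
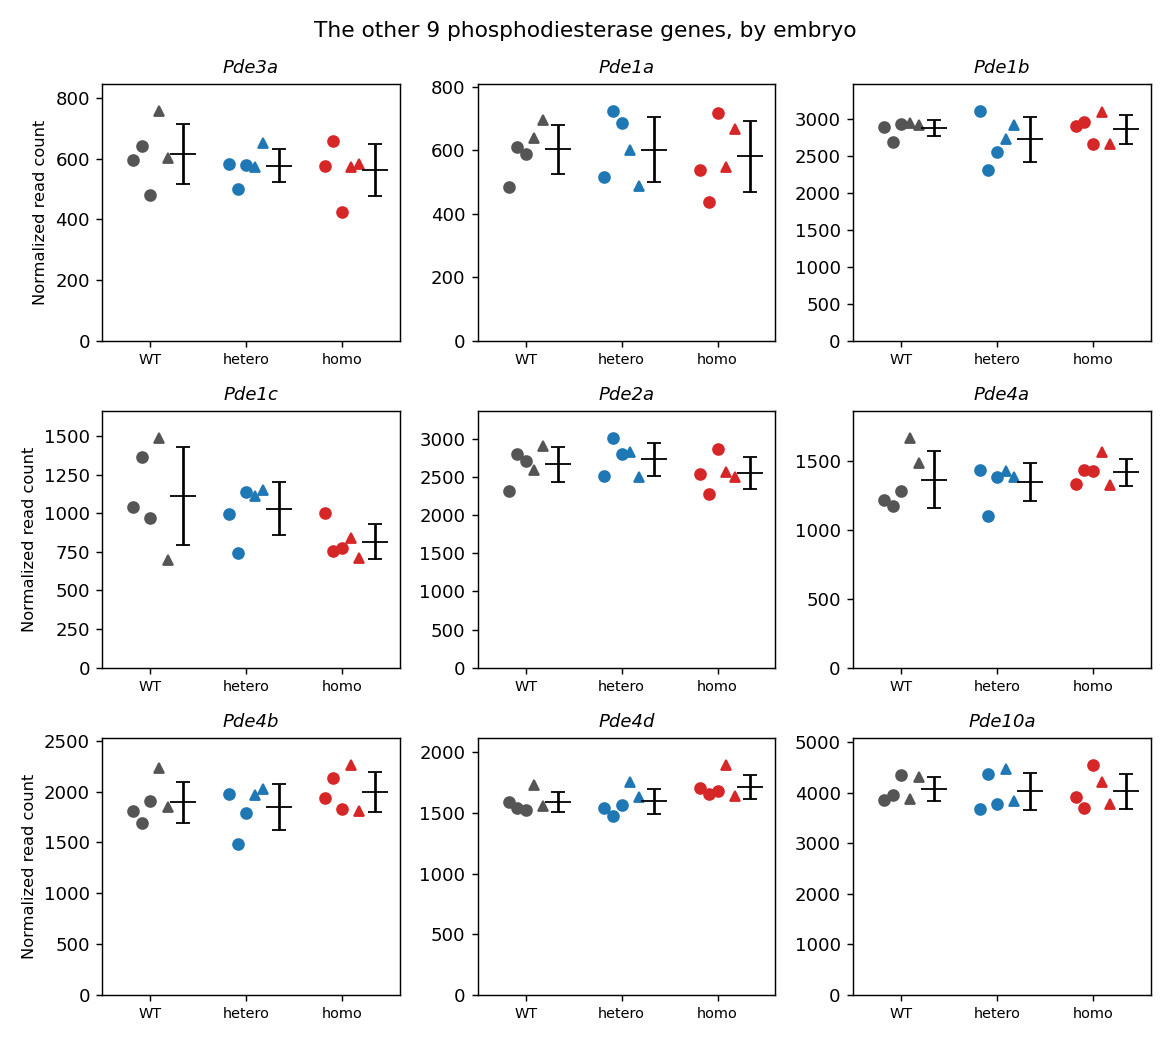
Normalized read count (vertical axes, from 0) of the other 9 genes in each embryo, 1 panel per gene, with circles for females, triangles for males, and the mean with its SD (n = 5) beside each genotype. The genotypes overlap in every panel, for example between 479 and 757 in WT and between 425 and 658 in Tbr1K228E/K228E embryos for Pde3a.

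Levels were set against each other per kilobase of the longest annotated transcript in WT embryos. Pde1b was highest at 882 ± 32.3 normalized reads per kb (SD, n = 5), followed by Pde2a at 644 ± 55.0, Pde10a at 524 ± 30.6, Pde4b at 440 ± 46.9, Pde4d at 378 ± 19.8, and Pde4a at 293 ± 44.3. Then came Pde1a at 141 ± 18.2, Pde3b at 130 ± 21.1, and Pde1c at 127 ± 36.2, which did not differ beyond their spread, and Pde3a was lowest at 49.99 ± 8.11. This order depends on the length that is used: with the median transcript length Pde10a came first at 1268, and Pde1c and Pde1a rose to 322 and 360 above Pde3b at 130.

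Another 14 listed genes, named as phosphodiesterases or their subunits, were examined in the same fit. Pde6a, Pde6b, and Pde6h, which belong to the photoreceptor enzymes, were below the filter, and 11 were tested. None of the 11 passed in any of the 3 comparisons, in which 0%, 0.127%, and 0.0788% of all tested genes did. At such shares a short list is unlikely to hold a call, so its absence says little about these genes or the lists below. The smallest p belonged to Pde6c in Tbr1+/K228E mice (log2 fold change 1.21, SE 0.63, at a mean of only 4.94 normalized reads in WT), to Pde9a in Tbr1K228E/K228E mice (-0.20, SE 0.10), and to Pde11a between both mutant genotypes (0.34, SE 0.15). Pde6c encodes the cone enzyme, Pde9a a cGMP-specific enzyme, and Pde11a an enzyme for both nucleotides.

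The enzymes that make the nucleotides were also examined, and none passed, against 0%, 0.127%, and 0.0788% of all tested genes. The 10 adenylyl cyclase genes had a median log2 fold change of -0.02 in either mutant genotype, against 0.00 for all tested genes. Adcy8, a calmodulin-stimulated cyclase, had the smallest p in Tbr1+/K228E mice (-0.30, SE 0.20) and between the mutant genotypes (0.28, SE 0.20), and Adcy1 had it in Tbr1K228E/K228E mice (-0.11, SE 0.09). Of the 10 guanylyl cyclase genes 8 were tested, with medians of 0.07 and 0.14 against WT and 6 of 8 above 0 in both. The smallest p belonged to Npr2 (0.11, SE 0.06), to Gucy1b1 (0.17, SE 0.10), and to Npr1 (-0.51, SE 0.32) in the 3 comparisons.

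Genes for the proteins that read and place the signal held no call, against 0%, 0.127%, and 0.0788% of all tested genes. Of 24 tested effector genes, which encode protein kinases A and G, inhibitors of protein kinase A, EPAC proteins, channels that bind cyclic nucleotides, and POPDC proteins, 19 were below 0 in Tbr1+/K228E mice (median -0.04) and 11 in Tbr1K228E/K228E mice (median 0.03). The smallest p belonged to Rapgef3 (-0.15, SE 0.10), to Popdc3 (0.62, SE 0.24), and to Cnga2 (-1.28, SE 0.51) between both mutant genotypes. Of 14 anchoring genes, 11 and 10 were below 0 against WT, with medians of -0.04 in either genotype. Akap13, which anchors protein kinase A, had the smallest p in both, at -0.21 (SE 0.07) and -0.17 (SE 0.07), and Pde4dip, which anchors PDE4D, had it between the mutant genotypes (0.08, SE 0.04). None of these passed correction, with adjusted p values from 0.996 to 1.00 (limma with Benjamini-Hochberg correction). The 3 calmodulin genes lay between -0.04 and 0.04 against WT, and Calm2 had the smallest p in each comparison.

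PDE3B acts downstream of insulin receptor signaling, and genes of the insulin and AKT pathway were examined for that reason. Of 15 tested genes, 7 were below 0 in Tbr1+/K228E and 9 in Tbr1K228E/K228E mice. None passed, against 0% and 0.127% of all tested genes. Irs1, which encodes insulin receptor substrate 1, had the smallest p in both, with log2 fold changes of -0.10 (SE 0.05) in Tbr1+/K228E and -0.10 (SE 0.05) in Tbr1K228E/K228E mice, and Pik3cg had it between both mutant genotypes (-0.38, SE 0.25). Of 14 tested genes that respond to CREB, the transcription factor activated by protein kinase A, 6 and 7 were below 0 against WT (medians 0.02 and -0.02). Nr4a1 (-0.13, SE 0.09), Nr4a3 (0.33, SE 0.18), and Bdnf (0.26, SE 0.20) had the smallest p in the 3 comparisons. No gene of this list passed, against 0%, 0.127%, and 0.0788% of all tested genes.

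The neighbors of Pde3b on chromosome 7 were described next. Within 500 kb lie 9 genes of the table, of which 8 were tested. Of these, 4 were below 0 and 4 above 0 in Tbr1+/K228E as well as in Tbr1K228E/K228E mice, with ranges of -0.67 to 0.06 and -0.69 to 0.12. None passed, against 0% and 0.127% of all tested genes. The embryos overlapped for all 8, and groups without overlap made up 0.26% and 0.594% of all tested genes. At such shares these counts say little about the 8 genes. The nearest, Cyp2r1, lies 10.4 kb from Pde3b and had log2 fold changes of -0.06 and 0.11.

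The genes whose log2 values were most like those of Pde3b over the 15 embryos were Slc17a5 (r = 0.81), Gpr35 (r = 0.80), Irs1 (r = 0.79), Ptges3 (r = 0.78), and Gm6337 (r = 0.76), picked as the highest of all tested genes. Spearman's rho was 0.59, 0.75, 0.76, 0.70, and 0.63 in the same order. These points share genotype, and without WT embryos 2 and 4 the r values were 0.76, 0.60, 0.62, 0.49, and 0.75. After the genotype means were taken out, the 5 most similar genes were Alkbh5 (r = 0.81), Slco4a1 (r = 0.80), Rp9 (r = 0.79), Gm11127 (r = 0.79), and Slc17a5 (r = 0.79). Their rho values were 0.79, 0.69, 0.77, 0.76, and 0.58, and without Tbr1+/K228E embryo 1 and WT embryo 4 the r values were 0.80, 0.67, 0.70, 0.66, and 0.47. Slc17a5, which encodes the lysosomal sialic acid transporter sialin, was in both sets. Of the other 9 phosphodiesterase genes, Pde1c (r = 0.53) and Pde3a (r = 0.39) were closest to Pde3b by log2 values. Without WT embryos 2 and 4 these values were -0.02 and -0.12. With the genotype means taken out, Pde1c (r = 0.50, rho = 0.51) and Pde1a (r = 0.33, rho = 0.29) were closest. Without Tbr1+/K228E embryo 1 and WT embryo 4 their r values were 0.48 and 0.21.

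Within genotypes, some of the phosphodiesterase genes varied together. The deviations of each embryo from its genotype mean were correlated over 15 embryos for all 45 pairs, a comparison that was added after the values were seen, with permutation within genotypes and Benjamini-Hochberg correction over the pairs. By Pearson's r, 9 pairs passed, and by Spearman's rho 5 of them did. Pde4b rose and fell with Pde1b (r = 0.84, adjusted permutation p = 0.00315, rho = 0.91) and with Pde4a (r = 0.84, adjusted permutation p = 0.0121, rho = 0.83). Pde2a varied with Pde1a (r = 0.87, adjusted permutation p = 0.00607, rho = 0.81) and with Pde10a (r = 0.77, adjusted permutation p = 0.0275, rho = 0.75). Pde4a also varied with Pde1b (r = 0.62, adjusted permutation p = 0.028, rho = 0.66), which was the fifth pair that passed by both measures. For each pair, r was taken again without the 2 embryos farthest from the median of only a single gene of the pair. The r values of these pairs were then 0.85, 0.69, 0.81, 0.76, and 0.52. Left out were Tbr1+/K228E embryo 2 and WT embryo 4 for pairs with Pde4a or Pde4b. For pairs with Pde2a they were Tbr1K228E/K228E embryo 2 and WT embryo 1. Pde4d went with Pde4b (r = 0.74, rho = 0.56) and Pde4a (r = 0.68, rho = 0.56) by Pearson's r, with adjusted permutation p values of 0.028 and 0.0313, but not by rho (adjusted permutation p = 0.189 and 0.169). Pairs of opposite direction were Pde3a with Pde10a (r = -0.71, rho = -0.59, adjusted permutation p = 0.0275) and Pde1a with Pde1b (r = -0.70, rho = -0.71, adjusted permutation p = 0.0442), which did not pass by rho (adjusted permutation p = 0.102 and 0.0844). Without 2 embryos chosen for each pair in the same way, the r values of these 4 pairs were 0.60, 0.47, -0.55, and -0.81. For Pde3b no pair passed, and its r values ran from -0.49 with Pde1b to 0.50 with Pde1c.

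**Figure D4:**
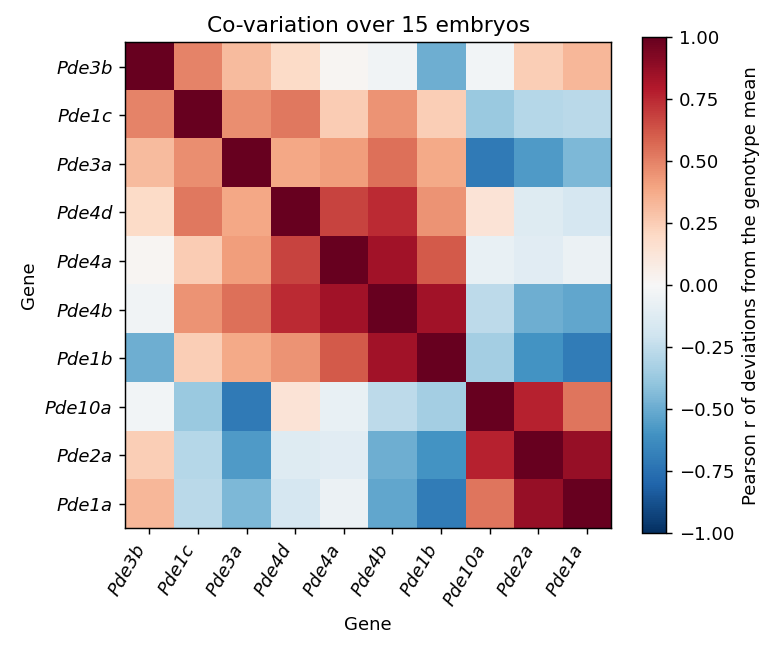
Pearson r between the 10 genes (both axes) of their deviations from the genotype mean over 15 embryos, with red for positive and blue for negative values. The highest r values are 0.87 for Pde1a with Pde2a and 0.84 for Pde4b with Pde4a and with Pde1b, the lowest is -0.71 for Pde3a with Pde10a, and those of Pde3b run from -0.49 to 0.50.

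The brain samples differed in their cell content, which bears on any gene with a regional pattern. In bulk tissue, fewer cells of a type and less RNA per cell cannot be told apart. Striatal (14 genes) and cortical excitatory (11 genes) markers were present in all 15 embryos. The summed level of 14 Hox genes, which mark the hindbrain and spinal cord, ran from 8.20 to 3253 normalized reads in WT, from 4.21 to 3805 in Tbr1+/K228E, and from 7.18 to 576 in Tbr1K228E/K228E embryos, with up to 13 of the 14 at 0 in an embryo. The summed level of 11 meningeal genes ran from 532 to 34410 in WT, from 4687 to 19811 in Tbr1+/K228E, and from 723 to 23173 in Tbr1K228E/K228E embryos, and 1 of the 11 (Foxc2) was at 0 in an embryo.

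WT embryos 2 and 4, which had the highest Pde3b values, had Hox sums of 392 and 3253, whereas WT embryo 1, with the lowest WT value, had 1145. Tbr1+/K228E embryo 1, which had the lowest, had a Hox sum of 3805. When the mean log2 levels of both lists were added as covariates, the log2 fold changes of Pde3b were -0.46 and -0.43. Over 60 relations between the 10 genes and 6 marker scores, each taken as deviations from the genotype mean, Pde3b was in none that passed. Its largest r was 0.18 in size, with the striatal score (rho = 0.06, adjusted permutation p = 0.781, n = 15). Without WT embryo 4 and Tbr1K228E/K228E embryo 2, its r moved from -0.03 to 0.42 with markers of dividing cells. With cortical excitatory markers it moved from -0.15 to 0.33. For the other scores, each without its own 2 farthest embryos, r lay between -0.06 and 0.03. WT embryo 4 had the lowest cortical excitatory score of the 15 embryos (10.5), against 11.4 in WT embryo 2 and 11.1 in WT embryo 1. Its score of dividing cells was 9.35, against 10.2 in WT embryos 1 and 2, and the lowest was 9.25 in Tbr1K228E/K228E embryo 2. Tbr1+/K228E embryo 1 had scores of 11.1 and 9.89. The part of cortical or dividing-cell content in the Pde3b difference was not tested.

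Of the 60 relations, 4 passed by Pearson's r and 0 by Spearman's rho. Pde3a was lower in embryos with more cortical excitatory markers (r = -0.89, adjusted permutation p = 0.0438, rho = -0.70, adjusted permutation p = 0.124), and Pde10a was higher in them (r = 0.69, adjusted permutation p = 0.0438, rho = 0.76, adjusted permutation p = 0.0528). Pde4a and Pde4b were lower in embryos with more markers of dividing cells (r = -0.80 and -0.71, adjusted permutation p = 0.0438 for both, rho = -0.79 and -0.68, adjusted permutation p = 0.0662 and 0.124). Without WT embryo 4 and Tbr1K228E/K228E embryo 2, which lay farthest from the median of both scores, the r values of Pde3a, Pde10a, Pde4a, and Pde4b were -0.84, 0.71, -0.84, and -0.61. The cortical score ranged over 10.5 to 11.7 in WT, 11.1 to 11.7 in Tbr1+/K228E, and 10.8 to 11.7 in Tbr1K228E/K228E embryos on the log2 scale. Its part in the genotype differences of these genes was not tested.

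**Figure D5:**
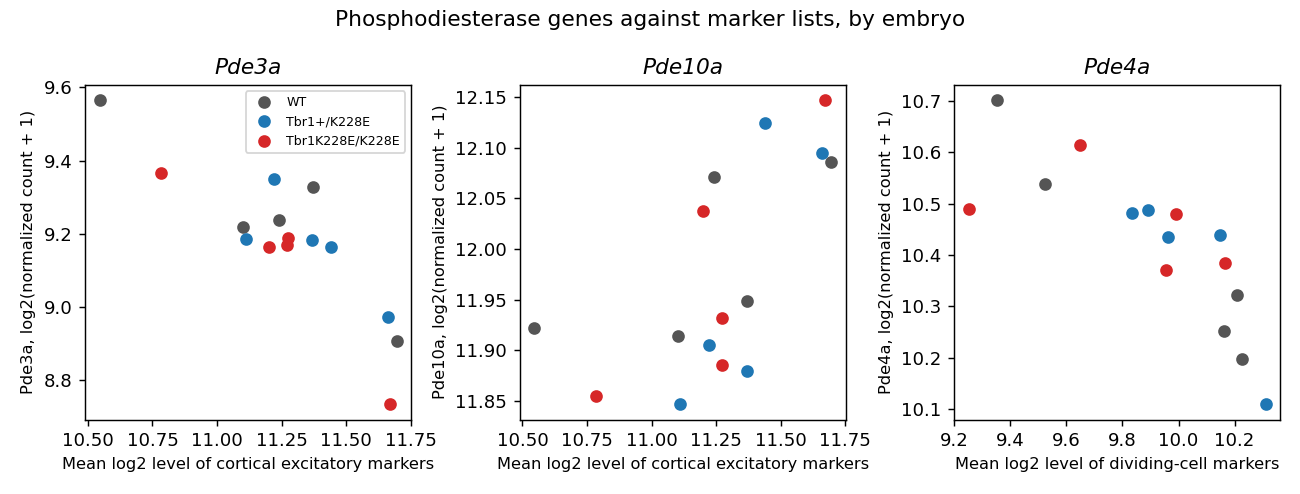
Log2 level of Pde3a, Pde10a, and Pde4a (vertical axes) against the mean log2 level of 11 cortical excitatory markers or 10 markers of dividing cells (horizontal axes), 1 point per embryo, colored by genotype. Pde3a falls (r = -0.89 within genotypes) and Pde10a rises (r = 0.69) with the cortical score, and Pde4a falls (r = -0.80) with the score of dividing cells, with embryos of all 3 genotypes along each trend.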

How the data were processed

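Normalized read counts of 19475 genes in 15 embryos were used, grouped by genotype, replicate number, and sex from the labels. The authors sequenced TruSeq libraries, quantified transcripts with Salmon 0.11.2 on GRCm38 with GC bias correction, summed them per gene by tximport, and applied size factors of DESeq2 1.22.2 in R 3.5.3. The values that the authors deposited are thus a scaled signal per gene. They summed to 30.5 to 31.8 M per embryo (M, mega), which reflects scaling and not depth, and whole reads could not be recovered. The depth of each library is therefore unknown, and no count model was fitted.

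All 15 embryos entered 1 fit in R 4.3.3 with limma 3.58.1 (trend, log2(value + 1)) over 16507 genes (mean of 5 or more), with Benjamini-Hochberg correction over all of them at 0.05. Fold changes are on the log2(value + 1) scale. The 2 comparisons with WT share the WT embryos. Symbols and coordinates came from GENCODE M21 (19469 genes matched). A marker score is the mean log2 level of a list, and correlations used 100000 permutations within genotypes (scipy 1.17.1). Log2 values of same-genotype embryos correlated with r of 0.971 to 0.988, and no columns were identical. The limma p-values set differences against the spread between these embryos. In that fit the spread of each gene was drawn toward a trend over all tested genes.

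The members and lists were chosen with earlier results of these data known. Named are the 10 genes, Tbr1, the gene with the smallest p of each list in each comparison, the 5 genes most like Pde3b by either measure, and the neighbors within 500 kb. The alternatives were pseudocounts, filters, scalings, sex, the replicate block, robust fits, subsets of embryos, an empirical null, and marker scores as covariates. The fit was tested on simulated data with larger changes than those of the 10 genes and with independent noise per gene. That test does not bear on changes this small or on shared differences in tissue content.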

Additional observations from a re-analysis of the deposited data

Results flagged for a closer look

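In each genotype, the highest or lowest of the 5 embryos was compared with the others by Dixon's ratio of its gap to the range (critical value 0.71), for 30 groups of 10 genes and 3 genotypes, and 3 groups exceeded it. Chance gives about 1 in 20 such groups. The lowest Pde4a value in Tbr1+/K228E embryos was 1103 (embryo 2), against 1383 to 1434 in the other 4, with a ratio of 0.845. The highest Pde4d value in Tbr1K228E/K228E embryos was 1892 (embryo 4), against 1640 to 1708, with a ratio of 0.728. The lowest Pde1b value in WT embryos was 2690 (embryo 2), against 2888 to 2943, with a ratio of 0.785. The cause was not tested. No Pde3b value was far from its group by this measure. A sex difference in the effect of genotype was tested by limma with Benjamini-Hochberg correction over all genes. None of the 9 genes other than Pde3b passed, and 0 of all tested genes did. The smallest adjusted p of the 9 in that limma test was 0.752, and the absence of a call says little about them.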

How the results depend on the processing

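Pde3b kept its direction against WT under all 15 alternatives (-0.46 to -0.40 in Tbr1+/K228E and -0.51 to -0.35 in Tbr1K228E/K228E mice) and without each embryo (-0.47 to -0.33 and -0.47 to -0.34). Between the mutant genotypes it ran from -0.09 to 0.05. Pde3b was chosen from these same values and its mutant embryos all lay below WT, so its kept direction is no support for a difference. None of the 9 other genes passed under any alternative. Their small differences reversed in 22 of 405 cases. In Tbr1+/K228E against WT, these were Pde4a 0.088, Pde4d -0.023, and Pde1a 0.18 in females, Pde1c 0.15, Pde2a -0.048, and Pde10a 0.018 in males, Pde4a 0.046, Pde4b 0.044, Pde1c 0.038, and Pde2a -0.00498 with the Hox and meningeal scores, Pde4a 0.031 with the striatal score, and Pde1a 0.00197 with quantile normalization. In Tbr1K228E/K228E against WT, these were Pde1b 0.0036 in females, Pde4a -0.13 and Pde4b -0.0074 in males, and Pde1b 0.012 with the Hox and meningeal scores. Between the mutant genotypes, these were Pde1a 0.16 and Pde10a -0.054 in males, Pde3a 0.011 and Pde10a -0.036 with the Hox and meningeal scores, and Pde10a -0.000932 and -0.0058 with upper quartile and quantile scaling. The cause was not tested.

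Leaving out 1 embryo reversed 38 of 405. The ranges in Tbr1+/K228E mice were -0.015 to 0.067 for Pde2a, -0.031 to 0.036 for Pde4d, -0.23 to 0.038 for Pde1c, -0.057 to 0.013 for Pde10a, -0.063 to 0.063 for Pde4a, -0.077 to 0.039 for Pde4b, and -0.085 to 0.064 for Pde1a. In Tbr1K228E/K228E mice they were -0.061 to 0.012 for Pde10a, -0.15 to 0.034 for Pde1a, and -0.039 to 0.0159 for Pde1b, and between the mutant genotypes -0.043 to 0.039 for Pde10a, -0.14 to 0.042 for Pde1a, and -0.11 to 0.051 for Pde3a.

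Among all genes, 21 passed in Tbr1K228E/K228E mice, against 12 in a fit of 2 genotypes, 1 in females, 0 in males, 42 with an empirical null, and 12 to 22 without an embryo. Between the mutant genotypes 13 passed, against 0 in females, 0 in males, and 6 to 17 without an embryo. With the replicate block 2 passed. Same-numbered embryos are different animals, and in 8 of 15 pairs their deviations correlated above 0.1 (r from -0.23 to 0.51). In 6 of the 15 pairs the same number gave the best match. Whether the numbers pair the embryos was not settled by these values, and the main fit took no block. By Spearman's rho, which was chosen after seeing the data, 5 of the 45 pairs and 0 of the 60 marker relations passed. What depth limits was not measured, since the depth of the libraries is unknown.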
